A study of Mus musculus with 9 samples.

Results

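The 10 genes described here encode the proteins that take actin filaments apart and hold the monomers that result: the depolymerizing and severing proteins Dstn, Cfl1, Cfl2, Gsn and their helper Wdr1, and the monomer-binding proteins Pfn1, Pfn2, Tmsb4x, Tmsb10 and Cap1. The members were all probe sets that the array annotation gives to 1 gene symbol, that symbol being one of the 10. This gave 27 of the 45101 probe sets on the array, between 1 and 6 for each gene, and 10 of the 18194 genes read by such probe sets. RNA came from NIH 3T3 cells, an established mouse fibroblast line, kept without serum before treatment. All 3 groups, controls included, received the translation blocker cycloheximide at 3 µg/ml for 2 h. The control group received no further agent, the cytochalasin D group received 2 µM cytochalasin D for 90 min, and the double-drug group received 5 µM latrunculin B and 2 µM cytochalasin D for 90 min. Each group holds 3 arrays, which the labels number 1, 3 and 7 and the series design calls independent biological replicates. The titles of the double-drug arrays name latrunculin B only, and their agent label, which was followed, names both drugs.

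Actin cycles between monomers and filaments. Destrin and the cofilins bind ageing filaments, sever them and release monomers, and Wdr1, also known as AIP1, speeds the disassembly of filaments that carry cofilin. Gelsolin cuts filaments in a calcium-dependent way and caps the new end, profilins recharge monomers with ATP and hand them to growing filaments, beta-thymosins store monomers, and Cap1 strips cofilin from monomers so that they can be used again. Monomeric actin also holds back the MRTF coactivators of the transcription factor SRF, which binds the CArG box. Cytochalasin D caps filament ends and releases MRTF from monomers, whereas latrunculin B binds monomers and leaves MRTF bound. The comparisons ask which of these genes differ in RNA level when the 2 drugs set the monomer pool in these different ways.

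The promoter windows of the 3 genes with a called change are shown because the drugs act on a route that ends at the CArG box. Sequences are from RefSeq, build GRCm38.p6, in the direction of transcription, from 250 bases before the annotated start to 50 bases after it. Capitals mark each match to the CArG box with at most 1 mismatch. The Dstn window lies at chr2:143915081-143915380 on the plus strand, the Wdr1 window at chr5:38561650-38561949 on the minus strand, and the Tmsb4x window at chrX:167209169-167209468 on the minus strand.
Dstn: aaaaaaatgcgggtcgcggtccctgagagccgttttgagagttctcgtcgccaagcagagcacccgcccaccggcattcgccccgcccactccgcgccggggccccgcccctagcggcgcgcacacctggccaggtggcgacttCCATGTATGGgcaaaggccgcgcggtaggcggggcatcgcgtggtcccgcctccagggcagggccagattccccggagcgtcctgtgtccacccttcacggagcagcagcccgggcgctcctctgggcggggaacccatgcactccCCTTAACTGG
Wdr1: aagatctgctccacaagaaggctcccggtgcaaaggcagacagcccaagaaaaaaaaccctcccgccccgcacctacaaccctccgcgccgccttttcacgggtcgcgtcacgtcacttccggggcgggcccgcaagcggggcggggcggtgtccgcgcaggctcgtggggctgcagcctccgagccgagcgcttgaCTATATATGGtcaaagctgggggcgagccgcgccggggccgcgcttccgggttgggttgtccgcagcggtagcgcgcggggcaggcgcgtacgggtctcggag
Tmsb4x: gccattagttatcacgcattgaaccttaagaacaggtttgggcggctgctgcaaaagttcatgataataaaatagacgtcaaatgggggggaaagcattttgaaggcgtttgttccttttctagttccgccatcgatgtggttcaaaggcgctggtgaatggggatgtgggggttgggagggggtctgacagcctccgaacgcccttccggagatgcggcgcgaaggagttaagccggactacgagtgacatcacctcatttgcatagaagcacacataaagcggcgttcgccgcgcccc
The Dstn window held 2 matches, whose first bases lay 106 bases before the start and 40 bases after it. The Wdr1 window held 1, which began 53 bases before the start, and the Tmsb4x window held none. The search covered both strands, since the CArG box reads the same on each. Over all 10 genes, 14 windows were available, of which 0 held an exact CArG box and 4 (28.6%) held a match with at most 1 mismatch, those of Dstn, Wdr1, Cfl1 and 1 of the Gsn windows. Among all 32851 windows of the RefSeq table, 1.63% held an exact match and 21.1% a match with at most 1 mismatch. A match describes the letters of the window and does not show a binding site.

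Signals were deposited as linear intensities, and the median over an array lay between 7.57 and 7.84. Depth has no meaning on arrays, and the number of 3 per group limits the precision. Of 12 fibroblast markers 11 passed the filter on dim probe sets, and Lum, at 5.02 to 5.20, did not. Their summed intensity was 116065 to 124134 in control, 112703 to 120415 with cytochalasin D and 116369 to 118621 with both drugs. Of the markers of other cell types, 3 of 6 leukocyte, 2 of 5 epithelial and 0 of 4 endothelial genes passed the filter. The leukocyte genes Lyz2 and Csf1r read 66.0 to 174 and 40.02 to 44.8, and Ptprc at most 5.27. The epithelial genes Epcam and Cdh1 read 12.4 to 16.9 and 7.94 to 10.2, and Krt8 at most 5.31. None of the 4 marker lists held a called gene in any comparison (0 by limma). The arrays' Actb probe sets, which read the 3′ and the 5′ end of that transcript separately, gave 3′ over 5′ intensity ratios of 1.64, 2.07 and 2.10 in control, 1.47, 1.47 and 1.67 with cytochalasin D and 1.61, 1.67 and 1.91 with both drugs. The same ratio of Gapdh lay between 0.77 and 0.834 on all 9 arrays. Because the measured RNA is bulk, fewer cells and less RNA per cell cannot be told apart.

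After cytochalasin D alone, the RNA of 3 of the 10 genes rose: destrin (Dstn), the cofilin helper Wdr1 and thymosin beta 4 (Tmsb4x). Of the 25 member probe sets that passed the filter, 4 (16%) were called higher and 0 lower at an adjusted p under 0.05 (limma, Benjamini-Hochberg over all 27010 probe sets tested), against 1.57% of all probe sets called in either direction, 1.14% called higher and 0.422% lower. The 4 calls come from 3 genes, since 2 of them are probe sets of Wdr1. Members were chosen with earlier results of these data known, so these shares describe the chosen set and carry no test. With the replicate number as a block, limma called 7 of the 25 higher and 1 lower, against 2.32% and 1.55% of all probe sets tested. The median log2 change of the 25 was 0.17, against -0.000977 over all probe sets tested, and 17 of the 25 were positive, against 45.6% of all. Intensities of the 3 cytochalasin D arrays lay wholly above the 3 control arrays for 7 member probe sets and wholly below for 2, where 5.05% and 6.45% of all probe sets tested were (11.5% in either direction). Every log2 change here is on the log2(intensity + 16) scale, which understates changes of dim probe sets. A Gsn and a Tmsb10 probe set (1456568_at and 1436682_at) with intensities of 5.65 to 6.22 did not pass the filter and were not tested.

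**Figure D1:**
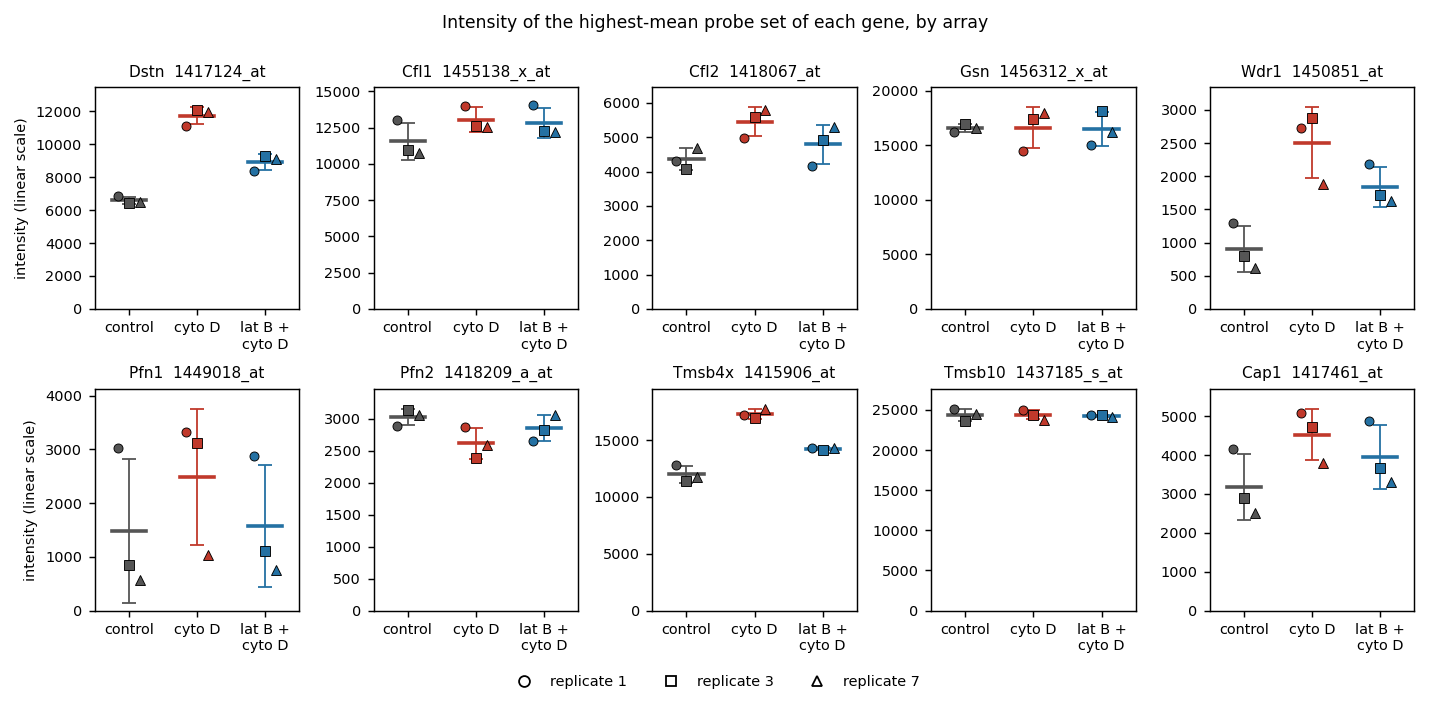
Linear intensity (y axis, from 0) on every array of each gene's probe set with the highest mean, by group, where symbols mark the replicate number, thick lines the group mean and error bars 1 SD (n = 3 arrays). The 3 groups of Dstn and of Tmsb4x do not touch, whereas the Pfn1 control arrays run from 577 to 3023.

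Destrin, the actin depolymerizing factor, is read by 1 probe set (1417124_at). Its intensity was 6849, 6456 and 6511 on control arrays 1, 3 and 7, 11132, 12076 and 11976 on the cytochalasin D arrays, and 8363, 9278 and 9094 on the double-drug arrays. The lowest cytochalasin D array lay above the highest double-drug array, and the lowest double-drug array above the highest control array. Group means were 6605 ± 213 in control, 11728 ± 519 with cytochalasin D and 8912 ± 484 with both drugs (SD, n = 3). Dstn rose by a log2 change of 0.83 ± 0.05 (SE) after cytochalasin D, 1.77-fold, with limma's adjusted p = 0.00117. Leaving out any single array kept the adjusted p between 0.00332 and 0.0103.

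The 2 cofilins, the closest relatives of destrin, were not called in the fit of all 9 arrays without a block. Cfl1 1455138_x_at passed on all 9 arrays with the replicate number as a block (limma's adjusted p = 0.0355). It also passed without the 3 arrays numbered 1 (0.0390). Cfl1, the cofilin of non-muscle cells, gave 13030, 10938 and 10740 in control, 14024, 12615 and 12527 with cytochalasin D, and 14046, 12297 and 12181 with both drugs on its brighter probe set (1455138_x_at). The array numbered 1 was the highest of each group, and the groups overlapped; the log2 change after cytochalasin D was 0.18 (95% interval -0.05 to 0.40, adjusted p = 0.653). The dimmer Cfl1 probe set (1448346_at) read 2534, 1119 and 1113 in control and 3196, 2808 and 1783 with cytochalasin D, a log2 change of 0.77 with an interval of -0.19 to 1.73. Cfl2, the muscle-type cofilin, had a log2 change of 0.32 on its brightest probe set (1418067_at), from 4317, 4061 and 4691 in control to 4981, 5586 and 5784. These 2 Cfl2 groups did not overlap, and the adjusted p was 0.315. The other Cfl2 probe sets had log2 changes of 0.58 (1418066_at, groups apart) and 0.11 (1431432_at, whose intensities stayed under 32).

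Wdr1 is read by 3 probe sets, which moved together across the 9 arrays (Pearson r of 0.961 to 0.996). On 1437591_a_at the intensity was 1037, 706 and 779 in control, 2075, 2410 and 1650 with cytochalasin D, and 1671, 1414 and 1149 with both drugs. On 1423054_at it was 1003, 743 and 722, then 1912, 2156 and 1462, then 1505, 1268 and 1105. Control arrays lay below all treated arrays on both, and the double-drug and cytochalasin D arrays overlapped. Wdr1 rose after cytochalasin D by a log2 change of 1.27 ± 0.21 (SE) on the first, 2.41-fold, and of 1.15 ± 0.20 on the second, 2.21-fold, with limma's adjusted p of 0.0412 and 0.0457. The third and brightest probe set (1450851_at) went from 1288, 801 and 612 to 2734, 2882 and 1889, a log2 change of 1.50 ± 0.29 that missed the threshold (adjusted p = 0.0741).

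The Wdr1 calls depended on which arrays were included. The call of 1437591_a_at was kept without control array 1 (adjusted p = 0.0407) and lost without any other array, at 0.145 without control 3, 0.148 without control 7, 0.101, 0.143 and 0.0510 without cytochalasin D 1, 3 and 7, and 0.0626, 0.0975 and 0.0603 without double-drug 1, 3 and 7. That of 1423054_at was kept without control 1 (0.0437) and without cytochalasin D 7 (0.0424). It was lost without control 3 (0.168), control 7 (0.156), cytochalasin D 1 (0.113), cytochalasin D 3 (0.154) and double-drug 1, 3 and 7 (0.0725, 0.105 and 0.0767). The third probe set passed without control 1 (0.0310). Over these 9 single-array omissions the count of member probe sets called ran from 2 to 5. The log2 change of the 2 called probe sets stayed positive in every one of them.

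Gelsolin (Gsn) was bright and did not pass the test on any probe set. Its brightest (1456312_x_at) read 16234, 16941 and 16611 in control, 14432, 17392 and 17912 with cytochalasin D, and 15003, 18120 and 16236 with both drugs. The groups overlapped, and the log2 change after cytochalasin D was -0.01 with a 95% interval of -0.24 to 0.22. Over the 5 tested Gsn probe sets the log2 changes ran from -0.12 to 0.17. Probe set 1415812_at, the one with 0.17, correlated negatively with the other 4 across the 9 arrays (Pearson r of -0.413 to -0.0652), so the Gsn probe sets did not report a single profile. Suffixes such as _x_at and _s_at mark probe sets that may also bind related transcripts.

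**Figure D2:**
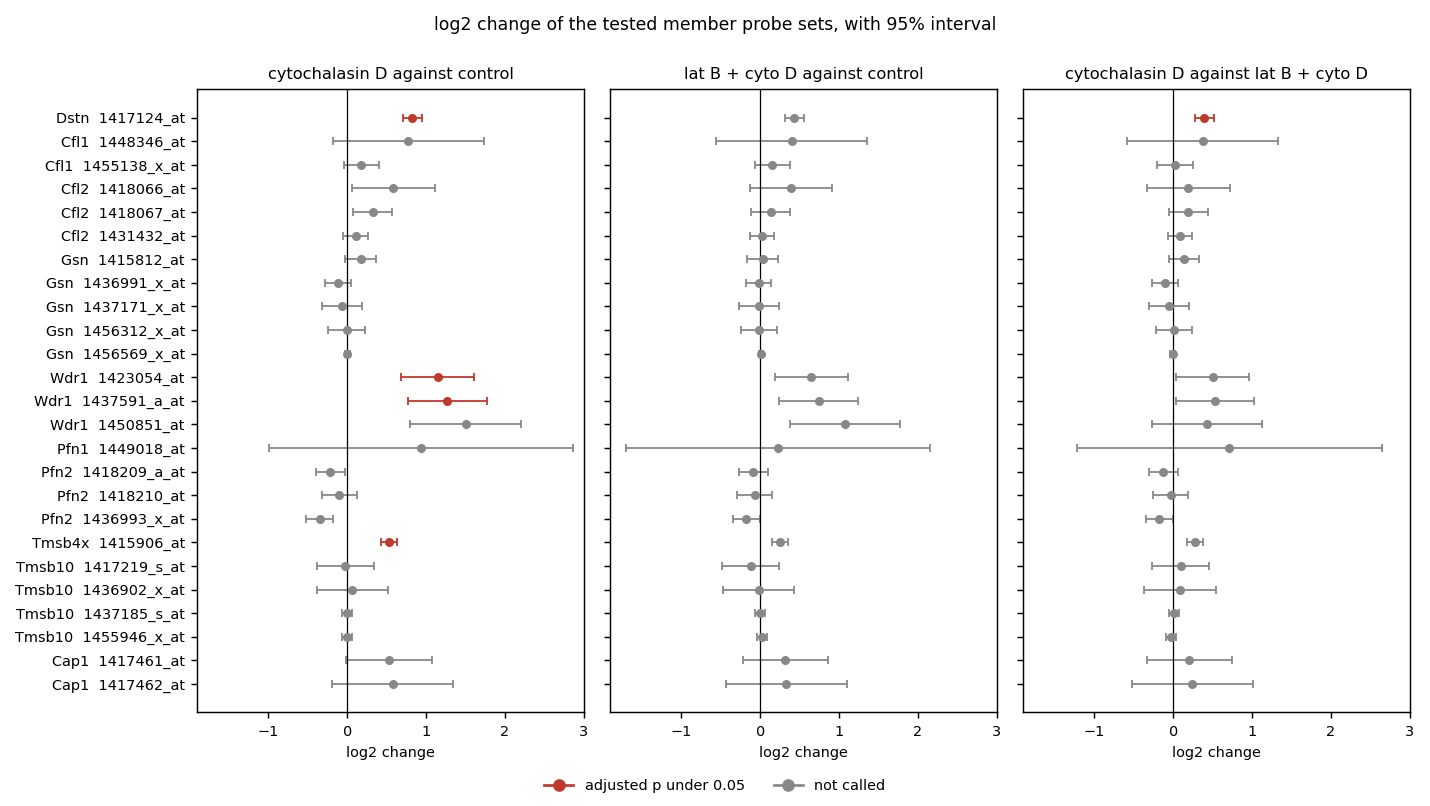
Log2 change (x axis, points) with its 95% interval (bars) of the 25 tested member probe sets in the 3 comparisons, with called probe sets in red. Called changes are Dstn, Tmsb4x and 2 Wdr1 probe sets for cytochalasin D against control, and Dstn for cytochalasin D against both drugs.

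Among the monomer-storing thymosins, Tmsb4x rose and Tmsb10 was not called. Tmsb4x, on its 1 probe set (1415906_at), read 12813, 11424 and 11710 in control, 17208, 16904 and 17751 with cytochalasin D, and 14342, 14106 and 14314 with both drugs. As for Dstn, the 3 groups were fully separated, with the double-drug arrays in the middle. The log2 change after cytochalasin D was 0.53 ± 0.04 (SE), 1.44-fold, with limma's adjusted p = 0.00268, and 0.00184 to 0.0165 on leaving out single arrays. Tmsb10 read 25060, 23634 and 24440 in control and 24945, 24418 and 23797 with cytochalasin D on its brightest probe set (1437185_s_at). Its groups overlapped and its log2 change had a 95% interval of -0.06 to 0.06. At most 0.131% of the array's probe sets were brighter, and its coefficient of variation within groups was 0.683% to 2.93%, against 9.9% to 21% for the dimmer 1417219_s_at and 1436902_x_at. Whether the narrow interval comes from compression at high signal was not tested. Those 2 probe sets had log2 changes of -0.02 (interval -0.39 to 0.34) and 0.06 (-0.39 to 0.52), and the dim 1455946_x_at -0.01.

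The profilins were not called in the fit without a block. Pfn1, the common profilin, varied more between replicate numbers than between groups: its 1 probe set (1449018_at) read 3023, 850 and 577 in control, 3315, 3112 and 1034 with cytochalasin D, and 2878, 1106 and 748 with both drugs. The array numbered 1 was the highest and the array numbered 7 the lowest in every group. The log2 change after cytochalasin D was 0.94 with a 95% interval of -0.99 to 2.87. Pfn2, the neuronal-type profilin, had negative log2 changes on all 3 probe sets, of -0.35 (1436993_x_at, adjusted p = 0.0908), -0.21 (1418209_a_at, adjusted p = 0.401) and -0.10 (1418210_at, adjusted p = 0.884). On 1436993_x_at the arrays read 951, 873 and 976 in control and 787, 713 and 687 with cytochalasin D, with no overlap, and those of 1418209_a_at did not overlap either. With the replicate number as a block 1436993_x_at was called lower (adjusted p = 0.0460).

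Cap1, which frees monomers from cofilin, had log2 changes of 0.53 (1417461_at, adjusted p = 0.510) and 0.57 (1417462_at, adjusted p = 0.688) after cytochalasin D. With the replicate number as a block limma called 1417461_at higher (adjusted p = 0.0429) and did not call 1417462_at (0.0662). On 1417461_at the intensities were 4145, 2895 and 2518 in control, 5071, 4712 and 3802 with cytochalasin D, and 4881, 3664 and 3298 with both drugs. In each group the order of the arrays was 1, 3 and 7 from high to low, as for Pfn1, and the groups overlapped. The Actb 3′ over 5′ ratio given above was lowest or tied for lowest on array 1 of each group and highest on array 7; its part in the Pfn1, Cap1, Cfl1 and Wdr1 values was not tested.

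With latrunculin B added to cytochalasin D, the mean levels of the 3 genes that had risen lay between those of control and of cytochalasin D alone, and 0 of the 25 member probe sets passed the test against control. Over all probe sets tested 0.111% were called in this comparison (0.1% higher and 0.0111% lower), and 6 members (24%) had an unadjusted p under 0.05 by limma, against 5.28% of all. The log2 changes against control were 0.43 for Dstn (95% interval 0.31 to 0.55, adjusted p = 0.0578) and 0.25 for Tmsb4x (0.15 to 0.35, adjusted p = 0.160). For Wdr1 they were 0.65, 0.74 and 1.07 on the 3 probe sets, with adjusted p of 0.618, 0.551 and 0.508. Double-drug arrays lay wholly above control for these 5 probe sets and wholly below for 0 members, where 4.09% and 3.99% of all probe sets were (8.08% in either direction). Without control array 1, Tmsb4x passed the test (adjusted p = 0.0310), and the count became 1. The median log2 change of the 25 members was 0.03, against 0.00315 for all.

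Cytochalasin D alone against both drugs, which differ in latrunculin B, gave 1 called member probe set of 25, that of Dstn, against 0.259% of all probe sets (0.248% higher and 0.0111% lower). Dstn was higher without latrunculin B by a log2 difference of 0.40 ± 0.05 (SE), 1.32-fold, with limma's adjusted p = 0.0488. With the replicate number as a block the adjusted p was 0.0831 and the count 0. The call was also lost on leaving out any 1 of the 9 arrays, with adjusted p of 0.0709 to 0.202, while the log2 difference stayed between 0.35 and 0.43. Tmsb4x differed by 0.28 (95% interval 0.18 to 0.38, adjusted p = 0.105), and passed without control array 1 (adjusted p = 0.0230). The Wdr1 differences were 0.50, 0.53 and 0.43, each with adjusted p = 0.9995. Cytochalasin D arrays lay wholly above double-drug arrays for 4 member probe sets, those of Dstn and Tmsb4x, Gsn 1415812_at and Cfl2 1431432_at, and wholly below for 0, where 2.92% and 3.33% of all were (6.26% in either direction). The dim Cfl2 1431432_at had the same value, 26.98, on all 3 double-drug arrays, and its lowest cytochalasin D array read 27.4. The 3 comparisons share arrays in pairs, so their changes are not independent of each other.

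The members fell apart by where their variation lay. For Dstn 97.6% of the sum of squares across the 9 arrays lay between drug groups and 0.606% between replicate numbers, and for Tmsb4x 95.9% and 1.77%. The 3 Wdr1 probe sets had 80.1% to 84.3% between groups. Pfn1 was the reverse, with 17.5% between groups and 72.1% between replicate numbers, as were Tmsb10 1436902_x_at (3.07% and 84.5%) and Gsn 1437171_x_at (6.13% and 82.2%). Cap1 1417461_at lay between, with 44.1% and 50.7%. The medians over all 27010 probe sets tested were 20.2% between groups and 41.4% between replicate numbers. These shares describe the arrays and carry no test.

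**Figure D3:**
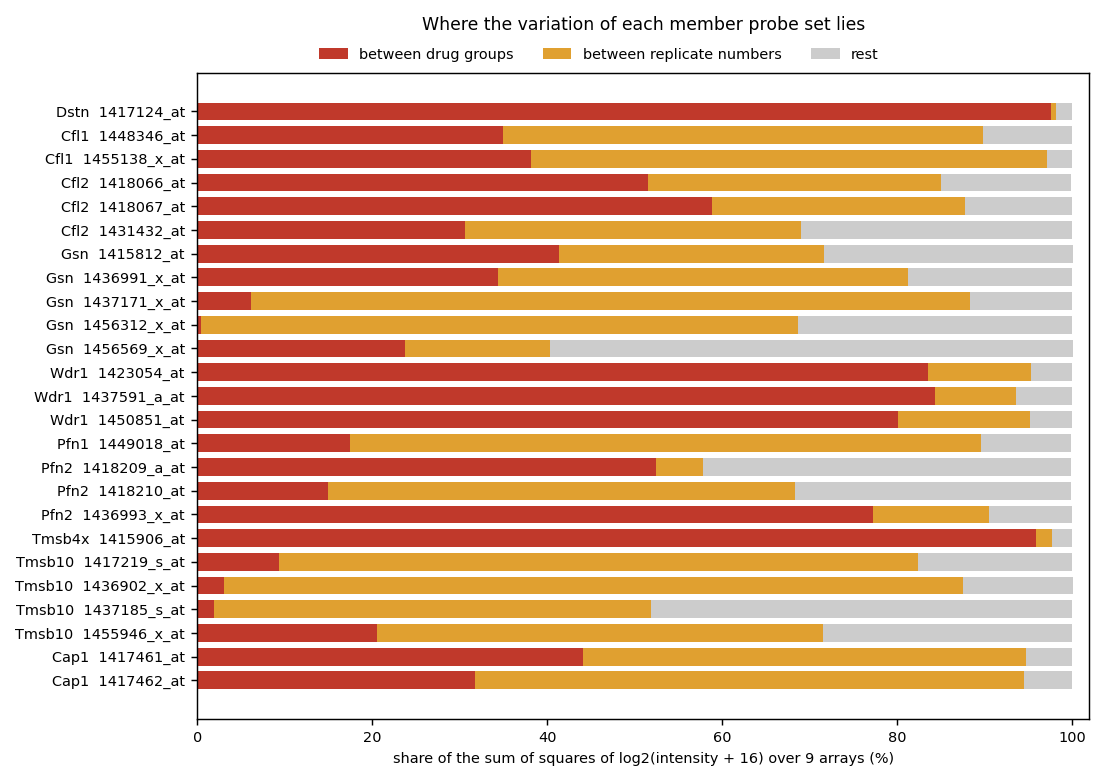
Share in percent (x axis) of the sum of squares of log2(intensity + 16) over the 9 arrays that lies between drug groups (red), between replicate numbers (orange) and in the rest (grey), for each tested member probe set. Dstn and Tmsb4x are red over 97.6% and 95.9% of the bar, and Pfn1 is orange over 72.1%.

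Within families, the change of one member was set against that of its relative on the same arrays. The log2 change of Dstn after cytochalasin D exceeded that of Cfl1 by 0.65 and that of Cfl2 by 0.50, and the change of Tmsb4x exceeded that of Tmsb10 by 0.53. The last value uses the very bright Tmsb10 probe set described above, and was 0.52 with the mean over all Tmsb10 probe sets. The Cfl1 and Cfl2 values use the brightest probe sets, 1455138_x_at and 1418067_at. On Cfl1 1448346_at the change was 0.77, near the 0.83 of Dstn, so the excess over Cfl1 depended on the probe set. On the other Cfl2 probe sets the change was 0.58 (1418066_at) and 0.11 (the dim 1431432_at). In these 3 pairs the cytochalasin D arrays lay wholly above the control arrays, and the two-sided exact permutation test gave p = 0.1, the smallest that 3 against 3 arrays allow (adjusted p = 0.188 over 15 tests). No paralog comparison could therefore pass the threshold. For both drugs against control the differences were 0.28 (Dstn and Cfl1, groups overlapping), 0.30 (Dstn and Cfl2) and 0.26 (Tmsb4x and Tmsb10). The Cfl1 change less the Cfl2 change was -0.14 after cytochalasin D (exact p = 0.4), with the groups overlapping. The Pfn1 change exceeded that of Pfn2 by 1.15 (exact p = 0.2), again with overlap.

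**Figure D4:**
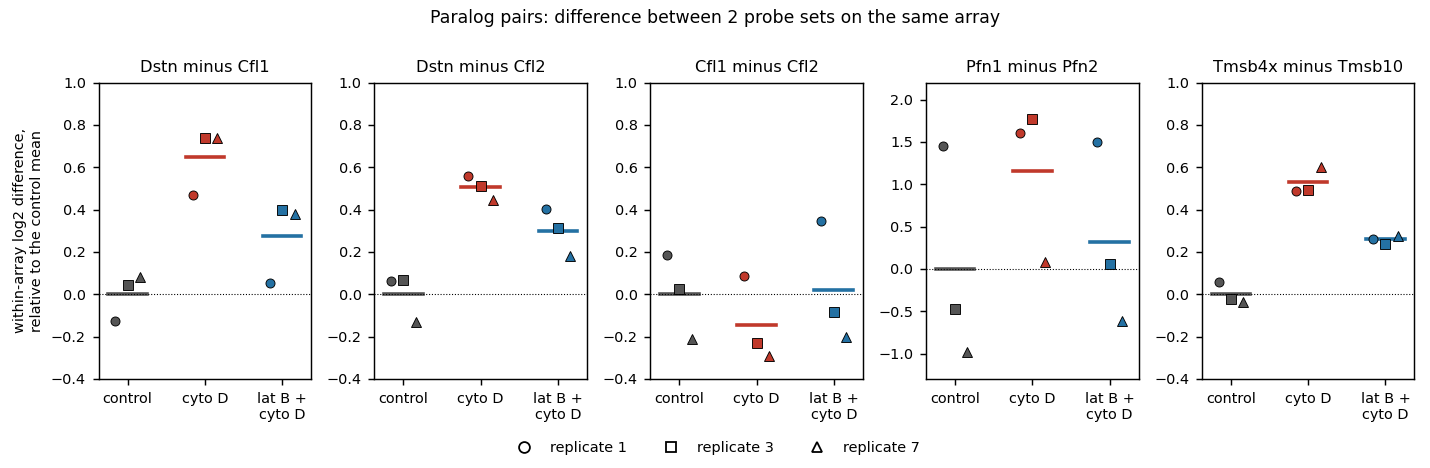
Log2 intensity of one paralog minus that of the other on the same array (y axis), set to 0 at the control mean, by group, where symbols mark replicate numbers and lines the group mean (the Pfn1 and Pfn2 panel has a wider scale). The cytochalasin D arrays lie above all control arrays for Dstn minus Cfl1, Dstn minus Cfl2 and Tmsb4x minus Tmsb10.

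Other genes of filament turnover were taken from 7 lists that hold 55 genes: cofilin kinases and phosphatases, relatives of the cofilin fold, gelsolin relatives, coronins, end-capping proteins, formins and MICAL oxidases. With 1 probe set for each gene, 44 could be tested. After cytochalasin D 3 were called higher and 0 lower, against 1.57% of all probe sets called, and the median log2 change was -0.000803, against -0.000977 over all probe sets. Tesk2, a kinase that phosphorylates cofilin, read 318 ± 25.5 in control and 748 ± 153 with cytochalasin D (SD, n = 3) and rose on the log2 scale by 1.18 (adjusted p = 0.0387). The MICAL enzymes oxidize actin and so take filaments apart. Mical2 rose from 37.2 ± 2.21 to 69.3 ± 7.37, by 0.68 (adjusted p = 0.00869), and Mical1 from 28.4 ± 4.71 to 44.6 ± 1.68, by 0.45 (adjusted p = 0.0383), both at dim intensities. The other of the 2 Mical2 probe sets was not called, whereas both Mical1 probe sets were. Mical3 had a change of -0.01. None of the coronins, capping proteins, formins, gelsolin relatives or cofilin-fold relatives was called. With the replicate number as a block the coronin Coro1c was called, at intensities of 505 ± 162 (control) and 991 ± 118 (cytochalasin D; SD, n = 3). Its change was 0.99 on the log2 scale, with limma's adjusted p = 0.0141, and 0.138 without the block.

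Some of these calls depended on the arrays and settings. The Mical2 call held on leaving out any 1 array (adjusted p of 0.00919 to 0.0462), and was lost in a fit of the 6 arrays compared (0.0565) and without the 3 arrays numbered 1 (0.0514). Tesk2 was lost without the filter on dim probe sets (0.0807), with quantile normalization (0.0510), in the 6-array fit (0.109) and without the arrays numbered 1 (0.0624). Mical1 was lost without the filter (0.0770), in the 6-array fit (0.198) and without the arrays numbered 1 (0.132). On leaving out single arrays, Tesk2 was lost without control array 1 (0.0998), control 3 (0.145), control 7 (0.104), cytochalasin D 3 (0.146), cytochalasin D 7 (0.109), double-drug 1 (0.0509) and double-drug 3 (0.0921). That of Mical1 was lost without control 3 (0.108), cytochalasin D 1, 3 and 7 (0.0909, 0.117 and 0.114) and double-drug 1, 3 and 7 (0.0829, 0.0897 and 0.0871).

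With both drugs 0 of the 44 genes were called against control, where 0.111% of all probe sets tested were. The 2 with the smallest p were Ssh2, a phosphatase that activates cofilin, with a log2 change of 0.45 (adjusted p = 0.728), and Tesk2 with 0.52 (adjusted p = 0.812). Between cytochalasin D alone and both drugs 1 gene was called, on 1 of its 2 probe sets, against 0.259% of all probe sets tested. Mical2 was higher without latrunculin B, at 69.3 ± 7.37 against 39.96 ± 3.88 (SD, n = 3), a log2 difference of 0.61 with adjusted p = 0.0470, and 0.0881 with the replicate number as a block. On leaving out single arrays its adjusted p was 0.0430 without cytochalasin D 1. It ranged from 0.0815 without control 1 to 0.235 without double-drug 3 for the other 8 arrays. This Mical2 call was also lost without the filter (limma's adjusted p = 0.0981), with quantile normalization (0.104) and in the 6-array fit (0.218). The same held with trend and robust prior (0.0569), with pseudocount 64 (0.0552) and without the arrays numbered 1 (0.198). The call was kept with pseudocount 1 (0.0398) and with the 60th percentile (0.0336).

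**Figure D5:**
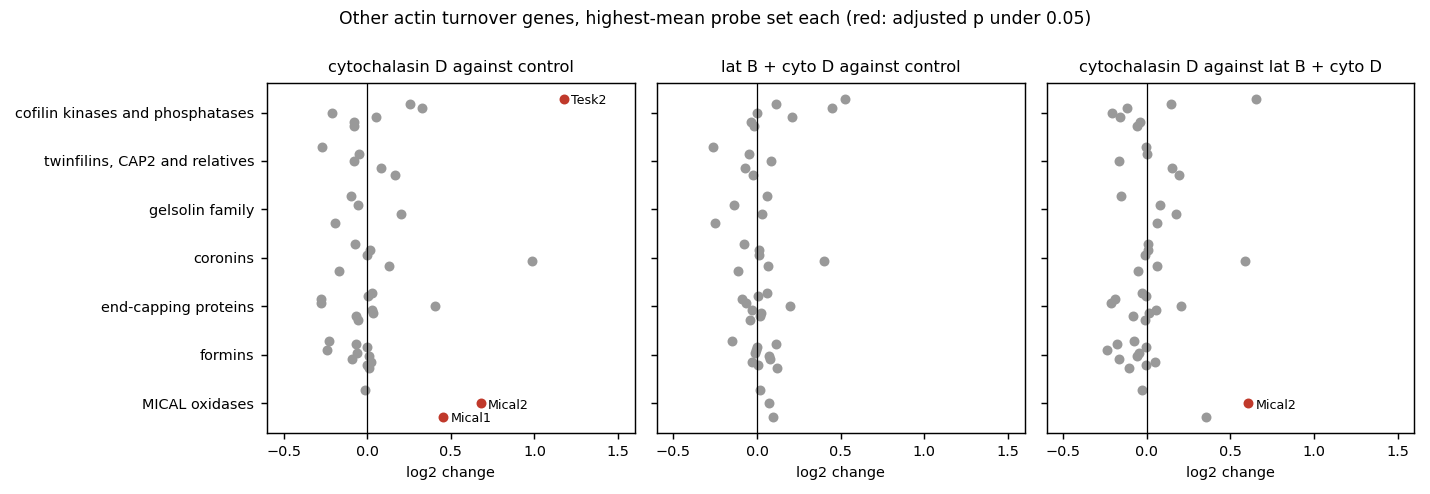
Log2 change (x axis) of the 44 tested genes of 7 further turnover lists (rows) in the 3 comparisons, 1 point for each gene, with called genes in red and named. Tesk2, Mical1 and Mical2 are called for cytochalasin D against control, and Mical2 for cytochalasin D against both drugs.

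The genes whose intensities followed the called members most closely over the 9 arrays were found by Pearson's r of log2 values, as a description, since the arrays share the drug groups. For Dstn these were Prepl (0.998), a serine hydrolase-like protein, Csrp1 (0.997), a LIM protein of actin bundles, and Dusp5 (0.993), a nuclear phosphatase of ERK. For Tmsb4x they were the mitochondrial enzyme Oat (0.991), Dusp5 (0.989) and the natriuretic peptide gene Nppb (0.988). For Wdr1, on 1437591_a_at, they were Arpc5 (0.979), a subunit of the Arp2/3 complex, the zinc-finger gene Zfand5 (0.974) and Pdlim5 (0.967), a PDZ and LIM protein. The mean intensity of Csrp1 was 420 ± 45.5 in control, 1365 ± 109 with cytochalasin D and 761.5 ± 48.0 with both drugs (SD, n = 3), the order seen for Dstn. Dusp5 read 98.3 ± 22.8, 804 ± 60.1 and 311 ± 43.3 in the same groups. Arpc5 read 1961 ± 152, 3333 ± 189 and 2727 ± 250.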

How the data were processed

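RNA from 9 cultures was measured on Affymetrix arrays. The authors deposited 1 linear intensity per probe set and array. Both MAS5 and GCRMA appear in the submitters' processing notes, with no version or role given. Files were used as deposited, with log2(intensity + 16) computed here from the authors' intensities. Affymetrix control probe sets were left out, and probe sets above the 40th percentile of their array on at least 3 arrays were tested.

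All 9 arrays entered 1 limma fit (lmFit, eBayes; limma 3.58.1, R 4.3.3), with 3 contrasts, two-sided p-values and Benjamini-Hochberg adjustment over all probe sets tested. The fit was tested on simulated data that held no effect of the replicate number, so that test does not cover the replicate-number differences in these arrays. Paralog differences used exact permutation tests (SciPy 1.17.1, Python 3.11.15). Gene symbols are those of the platform annotation, updated by gene ID, and came from probe sets with 1 symbol. Group labels came from the agent label.

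Every member is named. Of the 7 turnover lists, called genes are named, or the 2 with the smallest p where none is called. For each called member the 3 genes with the highest r are named. The probe set with the highest mean stands for a gene. Members and lists were chosen with earlier results of these data known.

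For both drugs against control, deviations of same-numbered arrays from their group means correlated at 0.834, 0.413 and 0.663, and for cytochalasin D against both drugs at 0.726, 0.411 and 0.756. Unlike numbers also correlated for both drugs against control, at 0.376 for double-drug 7 with control 3 and 0.339 for double-drug 3 with control 7. As read from the data, the numbers therefore pair the arrays of cytochalasin D against both drugs. For both drugs against control they pair the arrays numbered 1 and 7 and leave it unclear for those numbered 3. The p-values measure the spread between these arrays. Other pseudocounts, filters, normalization, priors, sample sets, the replicate block and left-out arrays were tried.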

Additional observations from a re-analysis of the deposited data

How the results depend on the processing

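Of 612 recomputed log2 changes, 527 kept their direction and their side of the threshold, which includes changes that were called in neither fit. A call was lost in 55, a call was gained in 10, and 20 turned sign. Only changes called at first could lose a call, so the 527 do not measure how stable the calls were. For cytochalasin D against control the count of member probe sets called (4) was 2 without the filter on dim probe sets, 2 in a fit of the 6 arrays compared, 8 with the replicate block, and 2 to 5 on leaving out single arrays. It was 3 without the 3 arrays numbered 1, where both Wdr1 calls were lost (adjusted p of 0.132 and 0.122) and Cfl1 1455138_x_at was gained (0.0390). The block added Cap1 1417461_at, Cfl1 1455138_x_at, Wdr1 1450851_at and, lower, Pfn2 1436993_x_at, with 3.87% of all probe sets called. In that comparison the same-numbered arrays' deviations correlated at 0.71, 0.0763 and 0.653. The data thus show a pairing for the arrays numbered 1 and 7 and leave it unclear for those numbered 3. Control 3 correlated at 0.391 with cytochalasin D 7. For both drugs against control the count (0) was 1 with an intensity trend and robust prior (Dstn, adjusted p = 0.0498) and 0 to 1 on leaving out single arrays. For cytochalasin D against both drugs the count (1) was 0 with pseudocount 1 or 64, without the filter, with the 60th percentile, in the fit of 6 arrays, with trend and robust prior, with the replicate block and without the 3 arrays numbered 1, and 0 to 1 on leaving out single arrays. The block changed no other member call beside these.

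Of 75 member log2 changes over all probe sets and comparisons, 24, in 6 genes and with 0 called, turned sign on leaving out single arrays. On the probe set with the highest mean, the change ran for Gsn from -0.0667 to 0.0890, -0.0883 to 0.0478 and -0.0555 to 0.106 in the 3 comparisons in the order of the report, for Tmsb10 from -0.0215 to 0.0208, -0.0295 to 0.0128 and -0.00845 to 0.0255, for Pfn1 with both drugs from -0.324 to 0.918, and for Cfl1 between the drug groups from -0.0276 to 0.0911. Without the 3 arrays numbered 1, Gsn had 0.0733 and 0.0320 against control, and Tmsb10 0.00992 and, between drug groups, -0.00560. With the mean over all probe sets of a gene, the Cfl1 change less the Cfl2 change was 0.14 against control and 0.0454 between drug groups. For both drugs against control, leaving out single arrays gave -0.143 to 0.132 for that pair and -0.284 to 1.04 for Pfn1 less Pfn2. The cause was not tested. Leaving out the arrays numbered 1 together, and single arrays for the paralog pairs and the other turnover genes, was chosen after seeing the data.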
